A study of Mus musculus with 6 samples.

Results

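Imprinted genes, of which only or mainly the copy from 1 parent is transcribed, were compared between VMHpvlm and VMHpvll, parts of the ventrolateral ventromedial hypothalamus (VMH), in female mice. The set was a fixed list of 34 symbols, matched exactly to the gene names of the deposited table of 47480 genes. All 34 were present, and 32 of them passed the filter (mean over the libraries of 10 or more) and were tested among 14522 genes. Both regions came from female VgluT2-cre/Ai6 mice, in which cre under the Slc17a6 (VgluT2) locus turns on a green reporter, and were cut by laser from frozen coronal sections. Each region gave 3 libraries, whose titles carry the names F19, F20 and KH_161103. The labels do not give the age or number of the mice, and whole captured areas were sequenced, so every cell type of the area contributes.

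Imprinted genes lie in clusters in which a differentially methylated control region, set in the egg or the sperm, decides which parental copy is active. Paternally expressed genes such as Peg3, Magel2 and Dlk1 and maternally expressed genes such as Meg3 and Ube3a are prominent in the hypothalamus, where they are known for effects on feeding, growth and maternal behaviour. Counts of reads sum both parental copies. They say nothing of which copy was transcribed, and the allele named below is textbook knowledge of each gene.

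Depth ran from 7157831 to 11293159 recovered reads per library. The VMH regulator Nr5a1 was between 286 and 322 in VMHpvlm and between 26.8 and 39.3 in VMHpvll, and Slc17a6 lay between 4533 and 4962 over all 6 libraries. Both belong to a list of 9 VMH neuron markers, of which 8 were tested, 5 were higher in VMHpvlm and 1, Nptx2 (-0.36), in VMHpvll. Of 12 neuronal markers, 6 were higher in VMHpvlm and 0 in VMHpvll, with a median log2 difference of 0.11. Markers of oligodendrocytes went the other way, with 11 of 12 called toward VMHpvll, 0 toward VMHpvlm and a median of -0.43. Over all tested genes, 10.5% were called toward VMHpvlm and 9.48% toward VMHpvll. For genes with a mean of at least 500 these shares were 20.9% and 14.1%. All values are normalised read counts, given in the order F19, F20, KH_161103, and a log2 difference is the VMHpvlm level less the VMHpvll level after log2(value + 1), with its standard error (SE). A gene was called where limma, with the shared name as a block, gave a Benjamini-Hochberg adjusted p below 0.05 over all tested genes.

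The imprinted genes that differed were mostly higher in VMHpvlm. Zim1, Dlk1, Peg10, Magel2, Usp29, Blcap, Mest, Kcnq1ot1 and Peg3 were higher in VMHpvlm, and Plagl1 and Impact were higher in VMHpvll. These were 9 of 32 tested members toward VMHpvlm, or 28.1%, against 10.5% of all tested genes, and 2 toward VMHpvll, or 6.25%, against 9.48%. The differences were modest: the largest was that of Zim1 at 0.67, and 0 members reached an absolute log2 difference of 1, which 3.04% of all tested genes did. Over the 32 tested members the median difference was 0.04, beside 0.00247 over all genes, and the median absolute difference was 0.098, beside 0.15. In 20 of the 32 all 3 pairs had the same sign, or 62.5%, against 48.1% of all genes. The 3 libraries of VMHpvlm were all above those of VMHpvll for 10 members, or 31.25%, against 14.5% of all genes, and all below for 2, or 6.25%, against 13.5%. Without the F19 pair 5 members were called toward VMHpvlm, Peg3, Blcap, Mest and Kcnq1ot1 being lost, and with a variance prior that had no trend and no robust step only Zim1 was called.

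**Figure D1:**
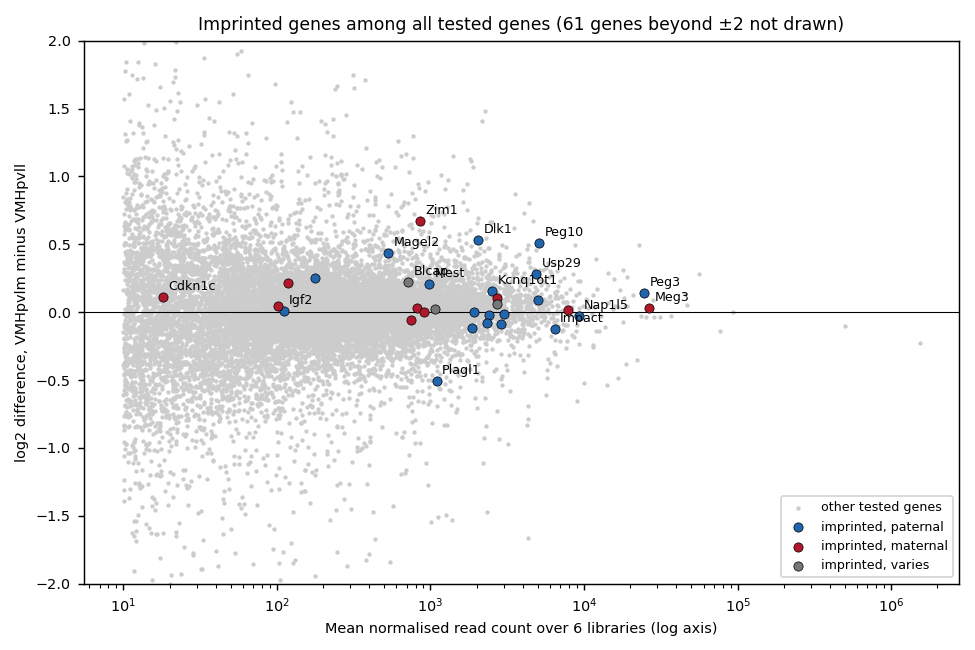
The y axis is the log2 difference, positive where VMHpvlm was higher, and the log-scaled x axis the normalised read count averaged over all libraries, with the 32 tested imprinted genes coloured by the expressed parental allele over all other tested genes in grey. Zim1, Dlk1, Peg10 and Magel2 lie at 0.67, 0.53, 0.51 and 0.43 and Plagl1 at -0.51, while Meg3 and Nap1l5 lie at 0.03 and -0.03.

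Most members were abundant, which bears on how many could be called. Of the 32, 27 had a mean above 500, and the median mean was 1987 against 183 for all tested genes. The median SE was 0.050 for members and 0.12 for all genes. Of 3873 genes whose mean reached 500, a level chosen after the values were seen, 20.9% were called toward VMHpvlm and 14.1% toward VMHpvll. Of the 27 members at that level, 33.3% were called toward VMHpvlm and 7.41% toward VMHpvll. For pairs of the same sign and for regions that did not overlap, no share at that level was computed. The shares of all genes given for them above are thus those of mostly less abundant genes.

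Per kilobase of annotated exon, the most abundant member was Nap1l5, a nucleosome assembly protein relative made from a gene inside an intron of Herc3, at 4995 normalised reads per kilobase. Peg3 followed with 1843, then the long noncoding RNA Meg3 with 1475, Snrpn with 1402 and Impact with 1252. At the other end of the 32 tested members were Commd1 with 17.1, Sgce with 16.7 and Cdkn1c with 8.86. The exon lengths joined all annotated transcripts of a gene, so a gene with long rare exons is understated. The 34 members together took between 1.18% and 1.28% of the reads in VMHpvlm and between 1.10% and 1.17% in VMHpvll, and these ranges did not overlap. Gm42418 made up 11.6% to 17.9% of the reads. With it left out of the total, the shares were 1.34% to 1.51% in VMHpvlm and 1.29% to 1.39% in VMHpvll, and these ranges overlapped.

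All 3 listed members of the Peg3 cluster were higher in VMHpvlm. This cluster on chromosome 7 holds Peg3, a zinc finger protein from 6703892 to 6730431 on the minus strand, Usp29, a relative of ubiquitin-specific proteases from 6730578 to 6967219 on the plus strand, and Zim1, a zinc finger gene from 6671269 to 6696450 on the minus strand (mm10, GENCODE M21). Peg3 and Usp29 are expressed from the paternal copy and Zim1 from the maternal copy. Zim1 read 1170.2, 1031 and 936 in VMHpvlm and 679, 661 and 619.9 in VMHpvll. The lowest VMHpvlm library lay above the highest VMHpvll library, a 1.60-fold difference of the means (1046 ± 118 against 653 ± 30.5, SD, n = 3). The log2 difference of Zim1 was 0.67 ± 0.061 SE (limma, Benjamini-Hochberg adjusted p = 3.76e-12), and Zim1 was called under every alternative run.

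Usp29 read 5330 at F19 in VMHpvlm, 5663 at F20 and 5025 at KH_161103, against 4311, 4697 and 4173 in VMHpvll. Its groups did not overlap, and the log2 differences within the 3 pairs, 0.31, 0.27 and 0.27, were close to each other (0.28 ± 0.035 SE, limma Benjamini-Hochberg adjusted p = 1.34e-08). Peg3 was at 25865, 25669 and 25694 in VMHpvlm and at 22234, 23727 and 24134 in VMHpvll. The VMHpvlm libraries of Peg3 were close together and all above VMHpvll, by 1.10-fold (0.14 ± 0.025 SE, limma Benjamini-Hochberg adjusted p = 2.61e-05). Peg3 was not called without the F19 pair (0.10, limma Benjamini-Hochberg adjusted p = 0.0597). Exons of Usp29 share 14.8% of their bases with Zim3 or Gm27675. The fold was thus largest for the maternally expressed Zim1 and smallest for Peg3, though differences between these genes were not tested.

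The annotated starts of Peg3 and Usp29 lie 147 bases apart on opposite strands, and the genes run away from each other. The short stretch between the starts is shown because both genes were higher in VMHpvlm. Between the RefSeq starts (GRCm38.p6, the same build as mm10, chr7:6730420-6730582, plus strand, Usp29 reading to the right and Peg3 to the left) the 163 bases hold 5 CpG and 0 matches to TGCCGC, the letters searched as described further on.
Peg3-Usp29: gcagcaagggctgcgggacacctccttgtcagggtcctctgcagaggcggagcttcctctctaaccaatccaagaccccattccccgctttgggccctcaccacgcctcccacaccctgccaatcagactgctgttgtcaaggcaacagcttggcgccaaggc

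In the Dlk1-Dio3 cluster the listed paternally expressed protein gene, Dlk1, was higher in VMHpvlm, while the listed maternally expressed noncoding RNAs were not called. Dlk1, a membrane-bound and shed ligand related to the Delta ligands of Notch, lies on chromosome 12 from 109452823 to 109463336. Dlk1 read 2292, 2404 and 2579 in VMHpvlm and 1752, 1808 and 1494 in VMHpvll. All VMHpvlm libraries were above all VMHpvll libraries, by 1.44-fold, and the gap was widest in the KH_161103 pair (0.53 ± 0.065 SE, limma Benjamini-Hochberg adjusted p = 2.66e-05). The log2 differences of Dlk1 within pairs were 0.39, 0.41 and 0.79.

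Meg3, whose RNA starts the maternal transcription unit of this cluster, was at 35483, 21520 and 24478 in VMHpvlm and at 30787, 22416 and 25382 in VMHpvll. Both F19 libraries were the highest of their region, and the regions overlapped (0.03 ± 0.069 SE, limma Benjamini-Hochberg adjusted p = 0.837). Rian, which hosts small nucleolar RNAs, had a log2 difference of 0.02 ± 0.031 SE, and Mirg, which hosts microRNAs, one of -0.06 ± 0.064 SE (limma Benjamini-Hochberg adjusted p = 0.773 and 0.599). The 3 noncoding RNAs thus stayed within the spread between libraries while Dlk1 did not, and whether Dlk1 differed from them was not tested. Of 57 microRNA hairpins of this cluster listed as rows of the table, 8 passed the filter, with means of 11.5 to 38.7, and 0 were called by limma. Reads in such rows are fragments of longer transcripts and do not measure mature microRNAs. The region upstream of the Dlk1 start (chr12:109452573-109452822, plus strand) is shown beside that of Magel2, since both paternally expressed genes were higher in VMHpvlm and neither stretch holds TGCCGC.
Dlk1: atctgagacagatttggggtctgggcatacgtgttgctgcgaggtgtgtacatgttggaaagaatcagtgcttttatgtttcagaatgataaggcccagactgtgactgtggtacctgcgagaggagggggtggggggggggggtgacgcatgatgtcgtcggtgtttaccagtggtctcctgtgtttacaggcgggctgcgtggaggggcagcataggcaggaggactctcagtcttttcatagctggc
Magel2: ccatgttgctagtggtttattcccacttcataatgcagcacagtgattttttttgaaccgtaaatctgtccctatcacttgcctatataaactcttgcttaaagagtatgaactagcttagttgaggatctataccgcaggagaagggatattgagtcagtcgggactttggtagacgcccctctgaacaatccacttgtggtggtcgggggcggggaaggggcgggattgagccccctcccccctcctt

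Among the listed genes of the Prader-Willi and Angelman cluster, Magel2 was higher in VMHpvlm, and Ndn, Snrpn and Ube3a were not called. Magel2, a MAGE family protein that works with ubiquitin ligases and protein recycling from endosomes, lies on chromosome 7 from 62377010 to 62381640. The 250 bases shown above end at its RefSeq start, which lies before the GENCODE start (chr7:62376729-62376978). Magel2 read 599, 601 and 627 in VMHpvlm and 449.6, 448 and 454 in VMHpvll. Libraries of 1 region were close together, and the regions did not overlap, with means 1.35-fold apart (0.43 ± 0.071 SE, limma Benjamini-Hochberg adjusted p = 6.27e-06). Ndn, a MAGE family protein whose gene starts 30441 bases from that of Magel2 on the same strand, was at 2286, 2393 and 2529 in VMHpvlm and 2329, 2468 and 2519.6 in VMHpvll. The values of Ndn overlapped fully (-0.02 ± 0.042 SE, limma Benjamini-Hochberg adjusted p = 0.785).

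Snrpn, which encodes a splicing protein of neurons, had a log2 difference of -0.02 ± 0.044 SE with pair values of 0.13, -0.18 and -0.0012, which disagreed in sign. Its exons share 34.1% of their bases with other genes, among them Snurf, which was listed at 0. Ube3a, a ubiquitin ligase expressed from the maternal copy in neurons, read 2831, 2912 and 2654 in VMHpvlm and 2554, 2582 and 2676 in VMHpvll. The regions overlapped only through the KH_161103 pair (0.10 ± 0.042 SE, limma Benjamini-Hochberg adjusted p = 0.0808). Exons of Ube3a share 27.3% of their bases with other-strand transcripts including Snhg14, and the use of strand in counting is not given in the sources used here. Snhg14, the paternally expressed noncoding RNA that silences the paternal Ube3a copy in neurons, was 1.20-fold higher in VMHpvlm (4789, 4104 and 4073 against 3890, 3351 and 3557). Its log2 difference was 0.26 ± 0.037 SE (limma Benjamini-Hochberg adjusted p = 3.06e-07). Mkrn3, a RING finger gene known for a part in the timing of puberty, was at 6.60 or below in every library, with 0 to 6 reads, and was not tested.

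In the Peg10 cluster on chromosome 6, Peg10 was higher in VMHpvlm. Peg10, a gene derived from a retrotransposon that encodes virus-like Gag and Pol domains, lies from 4747306 to 4760517. Peg10 was at 5806, 6474 and 5693 in VMHpvlm and at 4121, 4903 and 3693 in VMHpvll. The F20 library was the highest of each region, and all VMHpvlm libraries lay above all VMHpvll libraries, by 1.41-fold (0.51 ± 0.037 SE, limma Benjamini-Hochberg adjusted p = 1.15e-14). Sgce, which encodes epsilon-sarcoglycan and is also expressed from the paternal copy, starts 99 bases from Peg10 on the other strand. Sgce read 196, 203 and 177 in VMHpvlm and 173, 141 and 169.8 in VMHpvll. Its groups did not overlap, yet it was not called (0.25 ± 0.12 SE, limma Benjamini-Hochberg adjusted p = 0.143). Asb4, a maternally expressed ankyrin repeat protein farther along the chromosome, stood out in the F20 library of VMHpvlm, at 201 against 87.2 to 118 in the other libraries, and was not called (0.22 ± 0.16 SE, limma Benjamini-Hochberg adjusted p = 0.377).

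**Figure D2:**
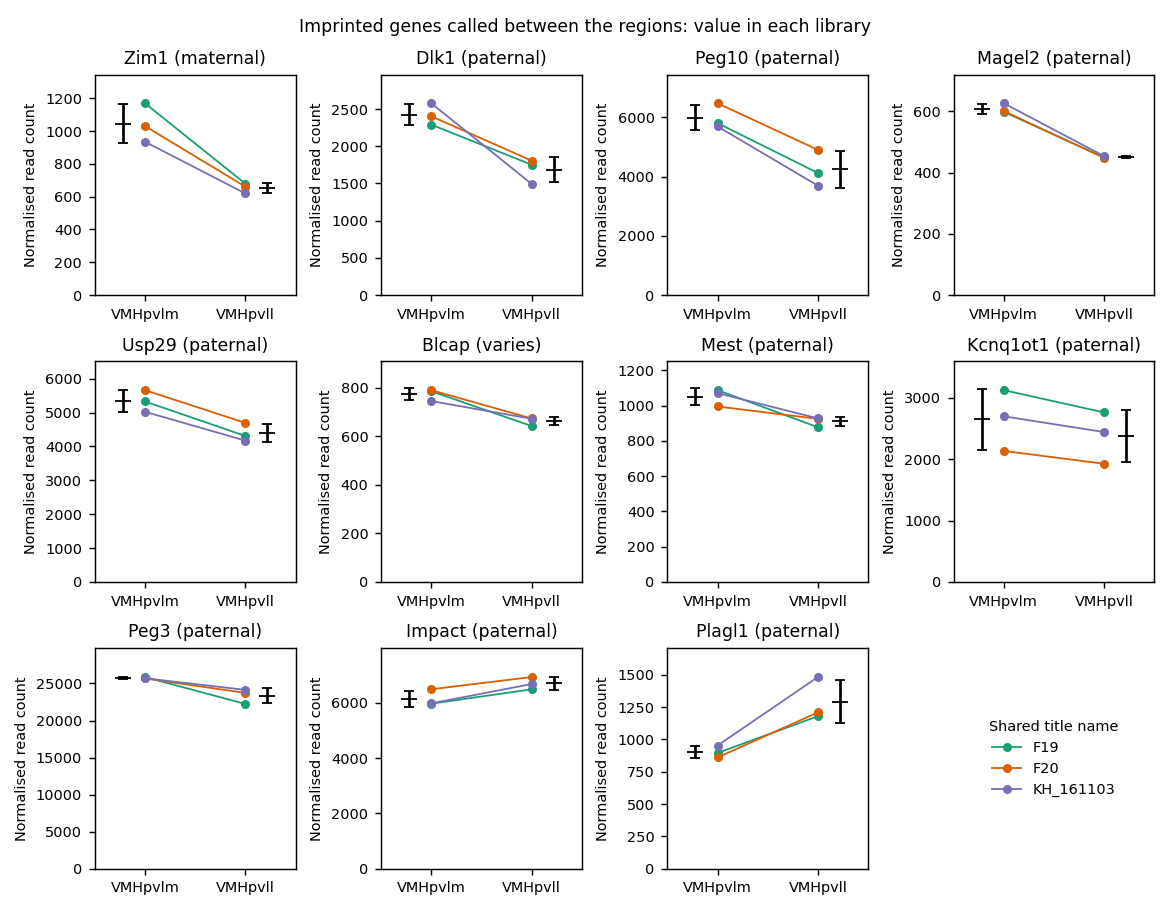
Each panel plots 1 of the 11 called imprinted genes, with the normalised read count on the y axis and the region on the x axis; points are libraries, a line connects those of the same title name, black bars are the regional mean with its SD (n = 3), and brackets hold the expressed parental allele. Zim1, Dlk1, Peg10 and Magel2 were higher in VMHpvlm in 3 of 3 pairs, with means at least 1.35-fold apart, and Plagl1 was higher in VMHpvll in 3 of 3 pairs.

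Plagl1 was the member with the largest difference toward VMHpvll. This paternally expressed zinc finger transcription factor, also called Zac1, lies on chromosome 10 from 13060504 to 13131694. It read 895, 861 and 953 in VMHpvlm and 1179.5, 1209 and 1483 in VMHpvll. Every VMHpvll library was above every VMHpvlm library, by 1.43-fold, with the highest value in the KH_161103 library (-0.51 ± 0.056 SE, limma Benjamini-Hochberg adjusted p = 7.63e-10). Impact, an inhibitor of the Gcn2 stress kinase pathway that is abundant in hypothalamic neurons, was at 5969, 6489 and 5979.9 in VMHpvlm and 6488, 6933 and 6679.8 in VMHpvll. The groups of Impact touched, since the F20 library of VMHpvlm was level with the F19 library of VMHpvll, and the difference was 1.09-fold (-0.13 ± 0.032 SE, limma Benjamini-Hochberg adjusted p = 0.00349). Impact was not called without the pair block (limma Benjamini-Hochberg adjusted p = 0.126), without the KH_161103 pair (0.167) or by DESeq2 (0.0863).

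Blcap, Mest and Kcnq1ot1 were higher in VMHpvlm by small amounts. Blcap, a membrane protein gene with Nnat inside its intron, read 786, 789.8 and 745 in VMHpvlm and 642, 673 and 672 in VMHpvll. Its groups did not overlap (0.22 ± 0.063 SE, limma Benjamini-Hochberg adjusted p = 0.00787), and it was not called without the F19 pair (0.0944) or by DESeq2 (0.231). Mest, an enzyme-like protein of the alpha/beta hydrolase fold, was at 1088, 995 and 1071 in VMHpvlm and at 877, 925 and 928 in VMHpvll. The groups of Mest did not overlap either, and the gap was narrowest in the F20 pair (0.21 ± 0.057 SE, limma Benjamini-Hochberg adjusted p = 0.00600). Mest was not called without the F19 pair (limma Benjamini-Hochberg adjusted p = 0.136), without the KH_161103 pair (0.0748) or by DESeq2 (0.186), and its exons share 23.1% of their bases with Copg2 on the other strand.

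Kcnq1ot1, a long noncoding RNA that silences its neighbours on the paternal chromosome, read 3123, 2133 and 2698 in VMHpvlm and 2760.2, 1924 and 2440.2 in VMHpvll. Its level followed the pair more than the region: the F20 libraries were the lowest of both regions and the groups overlapped, while each pair was higher in VMHpvlm (0.16 ± 0.041 SE, limma Benjamini-Hochberg adjusted p = 0.00395). Kcnq1ot1 was not called without the pair block (limma Benjamini-Hochberg adjusted p = 0.762), without the F19 pair (0.0575), without the KH_161103 pair (0.0614) or by DESeq2 (0.137). Its cluster neighbour Cdkn1c, an inhibitor of cyclin-dependent kinases, had only 8 to 20 reads per library and an SE of 0.36.

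With Ube3a, described above, Rasgrf1, Nnat and Zdbf2 had the lowest adjusted p among uncalled members. Nnat, a small membrane protein of the endoplasmic reticulum, was at 1807, 1899 and 1639 in VMHpvlm and 2101, 1981 and 1711 in VMHpvll. Nnat was lower in VMHpvlm in every pair, but the regions overlapped (-0.11 ± 0.046 SE, limma Benjamini-Hochberg adjusted p = 0.0819), and edgeR called it (Benjamini-Hochberg adjusted p = 0.0453). Rasgrf1, an activator of Ras, was higher in VMHpvlm in every pair with groups apart (0.09 ± 0.035 SE, limma Benjamini-Hochberg adjusted p = 0.0513, and 0.0253 with libraries set to the same total). Zdbf2, a zinc finger gene whose paternal copy is switched on early in development, was lower in VMHpvlm with groups apart (-0.09 ± 0.040 SE, limma Benjamini-Hochberg adjusted p = 0.121). All 3 differences were smaller than that of any called member.

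Genes of the insulin-like growth factor axis among the members did not differ beyond their spread. Igf2, a growth factor that in adult brain comes mainly from the meninges and choroid plexus, read 82.6, 154 and 99.0 in VMHpvlm and 80.2, 133 and 116 in VMHpvll. Igf2 was highest in the F20 library of each region (0.01 ± 0.15 SE, limma Benjamini-Hochberg adjusted p = 0.976), and 64.6% of its exon bases are shared with other annotated transcripts. H19 had 1 read in 1 library and 0 in the others, and 0 reads allow up to 3 per library, so no fold is given. Igf2r, the receptor that clears IGF2, and Grb10, an adaptor that dampens insulin receptor signalling, had log2 differences of 0.03 ± 0.054 SE and 0.06 ± 0.040 SE (limma Benjamini-Hochberg adjusted p = 0.805 and 0.360).

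The remaining uncalled members, Copg2, Trappc9, Peg13, Nap1l5, Zrsr1 and Commd1, lay within 0.08 of zero. Copg2, a subunit of the COPI vesicle coat, differed by 0.03, the vesicle tethering subunit Trappc9 by 0.0023 and the noncoding RNA Peg13 inside its intron by -0.08. Nap1l5 differed by -0.03, Zrsr1, which encodes a splicing factor relative, by -0.0017, and its host gene Commd1, a regulator of copper and protein sorting, by 0.05. The SE of these was between 0.033 for Nap1l5 and 0.16 for Commd1.

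**Figure D3:**
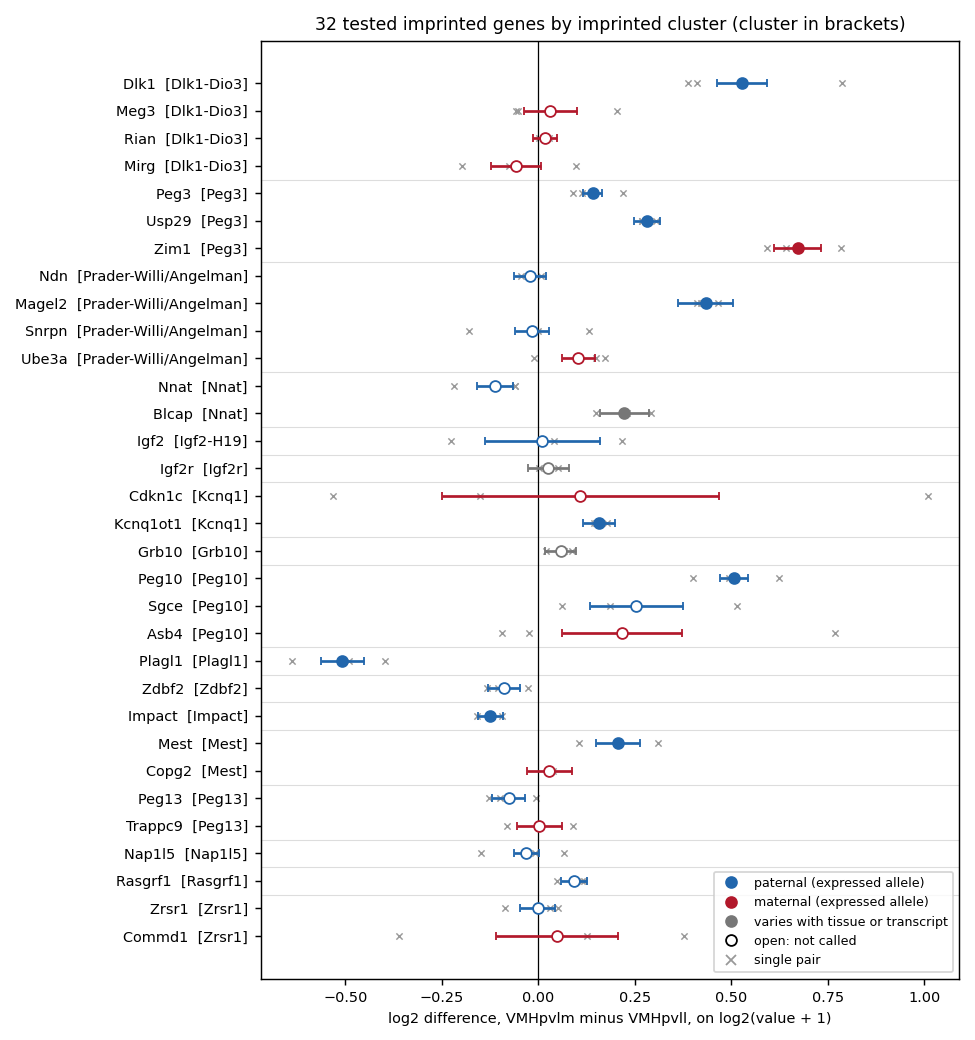
Points are the log2 difference, positive where VMHpvlm was higher, with SE bars for the 32 tested imprinted genes, grouped by imprinted cluster, with crosses for the single pairs, filled points for called genes and colour for the expressed parental allele. The 3 members of the Peg3 cluster lie to the right of 0. Dlk1, Magel2 and Peg10 were called beside uncalled neighbours of the list. Those of Peg10, Sgce (0.25) and Asb4 (0.22), lie on the same side of 0 as Peg10. Differences between neighbours were not tested.

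Paternally expressed members were called in both directions, and 1 maternally expressed member was called. Of 20 paternally expressed members, 19 were tested, of which 7 were higher in VMHpvlm (36.8%, against 10.5% of all genes) and 2 in VMHpvll (10.5%, against 9.48%). Their median log2 difference was 0.01, with a range from -0.51 to 0.53. Of all genes with a mean of at least 500, a level most members reached, 20.9% were called toward VMHpvlm and 14.1% toward VMHpvll. Of 11 maternally expressed members, 10 were tested, and Zim1 was the only one called (10% toward VMHpvlm and 0% toward VMHpvll, against the same 10.5% and 9.48%), with a median of 0.04 and a range from -0.06 to 0.67. The median absolute difference was 0.13 for paternally and 0.05 for maternally expressed members, beside 0.15 for all tested genes. Summed over the class, the paternally expressed members gave 78557 to 80203 normalised reads in VMHpvlm and 71457 to 76890.4 in VMHpvll, which did not overlap. The most abundant members weigh most in these sums: Peg3 alone gave 25669 to 25865 in VMHpvlm and 22234 to 24134 in VMHpvll. Gene by gene, 10 of the 19 log2 differences were positive and 9 negative. The maternally expressed members gave 35671 to 50601 in VMHpvlm and 35751 to 44888 in VMHpvll, sums that are mostly Meg3 and that overlapped. Blcap, Igf2r and Grb10 change their expressed copy with transcript or tissue and are in neither class. Whether the classes differed was not tested.

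The neighbours in 1 cluster were not always called together. In the Peg3 cluster the paternally and the maternally expressed members were higher in VMHpvlm together. In the Dlk1-Dio3, Prader-Willi/Angelman, Peg10, Nnat, Mest and Kcnq1 clusters 1 member of the list was called and the other tested members were not. The list does not hold every gene of a cluster. Rtl1, Snhg14 and Ppp1r9a, outside the list, lie in the Dlk1-Dio3, Prader-Willi/Angelman and Peg10 clusters and were called toward VMHpvlm. In 0 of the 17 clusters were members called in opposite directions, but only the Peg3 cluster held more than 1 called member. The other clusters therefore could not show opposite calls. The 2 members higher in VMHpvll, Plagl1 and Impact, each were the only member of the list from their cluster.

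The promoter windows of the members were searched for TGCCGC on both strands, the core that the imprint-keeping protein ZFP57 binds when its CpG is methylated. RefSeq windows of 300 bases (250 before and 50 after a start, GRCm38.p6) were at hand for 27 members, 40 windows in all, of which 13, or 32.5%, held the letters, against 11.6% of 32851 windows of all genes. Member windows were richer in CpG, with a median of 13.5 against 7, and among windows with at least 10 CpG the shares were 46.2% and 22.5%. Among called members with a window, 3 of 9 held the letters, and among uncalled ones 9 of 17. The 3 called members with a match were Zim1, Plagl1 and Mest, whose 250 bases before a RefSeq start are shown with the match in capitals (GCGGCA is the same word read on the other strand). Zim1 is at chr7:6696433-6696682 (minus strand), Plagl1 at chr10:13090582-13090831 (plus strand) and Mest at chr6:30737800-30738049 (plus strand). The starts used for Zim1, Plagl1 and Mest lie inside the GENCODE gene bounds, downstream of the outermost annotated start (6696450 for Zim1, 13060504 for Plagl1 and 30723547 for Mest). Of the 3 Mest windows 1 held no match.
Zim1: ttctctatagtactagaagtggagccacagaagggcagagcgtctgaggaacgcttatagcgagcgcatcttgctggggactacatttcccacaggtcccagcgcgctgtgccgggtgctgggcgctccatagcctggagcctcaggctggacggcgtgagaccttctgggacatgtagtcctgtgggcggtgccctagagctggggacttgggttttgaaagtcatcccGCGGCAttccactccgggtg
Plagl1: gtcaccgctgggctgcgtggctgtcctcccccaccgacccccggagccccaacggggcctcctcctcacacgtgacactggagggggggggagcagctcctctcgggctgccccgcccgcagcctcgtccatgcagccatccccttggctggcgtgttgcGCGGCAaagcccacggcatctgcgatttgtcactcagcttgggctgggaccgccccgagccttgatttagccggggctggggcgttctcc
Mest: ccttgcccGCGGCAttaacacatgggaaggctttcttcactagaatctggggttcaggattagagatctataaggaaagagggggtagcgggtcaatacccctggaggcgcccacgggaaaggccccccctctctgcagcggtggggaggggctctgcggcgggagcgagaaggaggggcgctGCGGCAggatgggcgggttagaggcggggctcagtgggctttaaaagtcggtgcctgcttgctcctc

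Zfp57 itself, the gene of that protein, was higher in VMHpvll. It read 90.7, 70.8 and 104 in VMHpvlm and 129.7, 122 and 159.8 in VMHpvll. The regions did not overlap and differed by 1.55-fold (-0.64 ± 0.15 SE, limma Benjamini-Hochberg adjusted p = 0.000903, and 0.0724 by DESeq2). Of 28 genes that keep or read imprints and silent chromatin, 22 were tested, 0 were higher in VMHpvlm and 2, Zfp57 and the methylcytosine oxidase Tet2, in VMHpvll, against the 10.5% and 9.48% of all genes. Tet2 was 1.14-fold higher in VMHpvll (-0.19 ± 0.055 SE, limma Benjamini-Hochberg adjusted p = 0.0103, and 0.0945 without the pair block, 0.214 without the KH_161103 pair and 0.187 by DESeq2). The maintenance methyltransferase Dnmt1, the ZFP57 partner Trim28 and the insulator protein gene Ctcf had log2 differences of 0.01, -0.01 and 0.11 and were not called. The median of the list was 0.03.

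Of 50 further genes described as imprinted in some mouse tissue, 34 were tested, of which 8 were higher in VMHpvlm (23.5%, against 10.5% of all genes) and 3 in VMHpvll (8.82%, against 9.48%). Their median log2 difference was 0.06. Rtl1, a retrotransposon-derived gene of the Dlk1-Dio3 cluster expressed from the paternal copy like Dlk1, was at 218, 243 and 273 in VMHpvlm and at 217, 165 and 162 in VMHpvll. The F19 libraries of Rtl1 were level and the other pairs apart (0.44 ± 0.12 SE, limma Benjamini-Hochberg adjusted p = 0.00525, and 0.256 without the KH_161103 pair and 0.179 by DESeq2). Ppp1r9a, a synaptic actin-binding protein between Sgce and Asb4 on chromosome 6, was 1.23-fold higher in VMHpvlm (0.30 ± 0.033 SE, limma Benjamini-Hochberg adjusted p = 8.12e-10). Adam23, a membrane protein gene near Zdbf2, was 1.29-fold higher in VMHpvlm, beside -0.09 on the log2 scale for the uncalled Zdbf2.

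Gnas, which encodes the stimulatory G protein alpha subunit and is imprinted in parts of the brain, was 1.13-fold higher in VMHpvlm (12937, 13409 and 12258 against 11475, 12242 and 10534). Its log2 difference was 0.17 ± 0.028 SE (limma Benjamini-Hochberg adjusted p = 4.49e-06), and the lowest VMHpvlm value was just above the highest VMHpvll value. Cobl (0.26), Ago2 (0.16) and Atp10a (0.39) were also higher in VMHpvlm, and Sfmbt2 (-0.35), Gatm (-0.30) and Slc38a4 (-1.03) were higher in VMHpvll. Atp10a was lost without the F20 pair and without the KH_161103 pair, Cobl without the F19 pair, Gatm without the KH_161103 pair, Sfmbt2 without the F20 or the KH_161103 pair, and Slc38a4 without any 1 of the 3 pairs. By DESeq2, Cobl, Ago2, Atp10a, Sfmbt2, Gatm and Slc38a4 were all lost, and without the pair block Ago2, Atp10a, Sfmbt2 and Slc38a4 were lost. Without the KH_161103 pair, 6 of the further imprinted genes were called toward VMHpvlm and 0 toward VMHpvll.

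Most tested partners of the insulin-like growth factor genes differed between the regions. Of 14 listed, 9 were tested, of which 5 were higher in VMHpvll (55.6%, against 9.48% of all genes) and 2 in VMHpvlm (22.2%, against 10.5%). Their median log2 difference was -0.36. Igf1, a growth factor that shares a receptor with IGF2, read 17.6, 16.7 and 16.3 in VMHpvlm and 84.6, 58.1 and 53.9 in VMHpvll. The groups of Igf1 were far apart, by 3.88-fold (-1.87 ± 0.26 SE, limma Benjamini-Hochberg adjusted p = 1.86e-07). Its receptor Igf1r was 1.29-fold higher in VMHpvll (-0.36 ± 0.054 SE, limma Benjamini-Hochberg adjusted p = 1.14e-06), and the signalling adaptor Irs2 was 1.37-fold higher there (-0.45 ± 0.047 SE, limma Benjamini-Hochberg adjusted p = 2.05e-10). Igfbp3 (-0.71) and Igfbp7 (-0.76) were higher in VMHpvll, and Irs1 (0.26) and Igfbp5 (0.21) in VMHpvlm. Irs1 was lost without the F19 or the KH_161103 pair, and Igfbp5 and Igfbp7 without the KH_161103 pair. By DESeq2 Irs1, Igfbp5 and Igfbp7 were lost, and without the pair block Irs1 and Igfbp5.

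Markers of other cell types moved with the region, and their part in the results was not tested. In tissue samples, fewer cells of a type and less RNA per cell cannot be told apart. The summed level of 12 neuronal markers was 81394 to 87497 in VMHpvlm and 76349.8 to 81586 in VMHpvll, and that of 12 oligodendrocyte markers 12370.4 to 14149.7 against 16732 to 17948. Toward VMHpvll limma called 5 of 10 astrocyte markers and toward VMHpvlm 0 (sums 33172 to 35974 against 39123 to 44247), and likewise 6 and 0 of 12 vascular markers (sums 2028 to 2303 against 2843 to 3124). Of all tested genes, 9.48% were called toward VMHpvll and 10.5% toward VMHpvlm. The vascular count fell to 3 without the F19 pair and to 2 by DESeq2, and the neuronal count from 6 to 2 without the pair block and to 3 by DESeq2. With the prior without trend and robust step, limma called 0 neuronal, 0 oligodendrocyte, 0 astrocyte and 1 vascular markers. Of 10 microglia markers 0 were called by limma (sums 1279 to 1394 against 1366 to 1527). The neuronal and microglial sums overlapped between regions, and those of oligodendrocytes, astrocytes and vessels did not. Of 12 markers of leptomeninges and choroid plexus, 6 were tested and 1 was called in each direction, with sums of 450 to 638.5 in VMHpvlm and 514 to 779 in VMHpvll, and the choroid plexus genes Ttr and Folr1 were between 0 and 1.35 in every library.

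**Figure D4:**
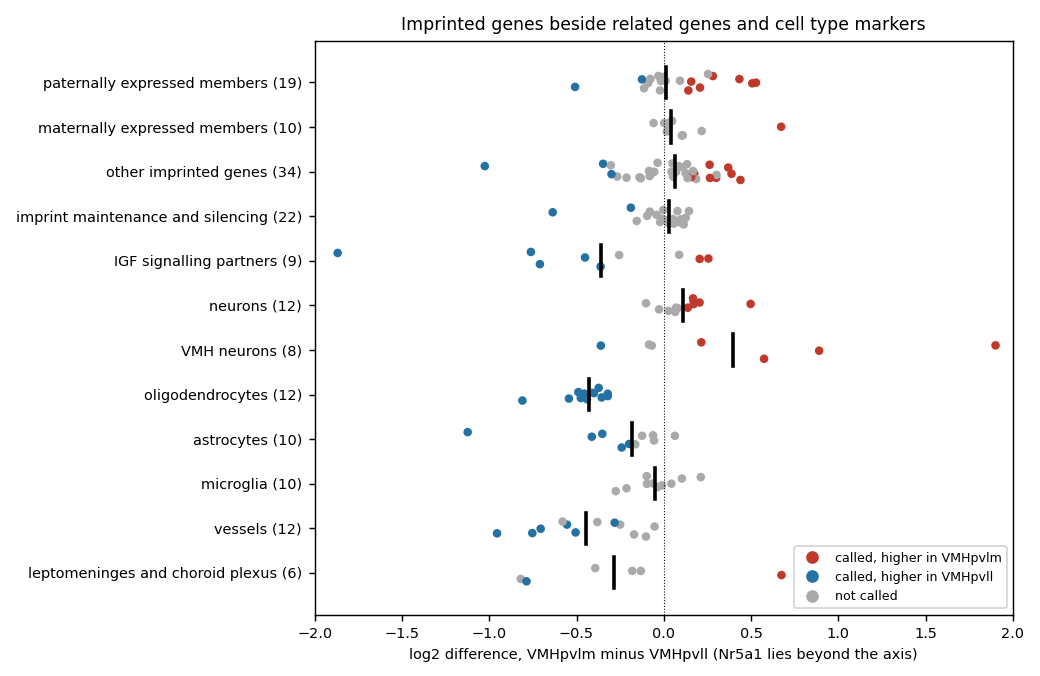
Each point is the log2 difference of 1 gene, positive where VMHpvlm was higher, for the tested paternally and maternally expressed members, further imprinted genes, related genes and cell type markers, with the number tested beside the name and the median as a black line. Red marks a call toward VMHpvlm, blue a call toward VMHpvll and grey no call. The medians of the imprinted lists lie between 0.01 and 0.06, that of neuronal markers at 0.11 and that of oligodendrocyte markers at -0.43.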

How the data were processed

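Gene expression was measured by RNA sequencing (HISAT2, featureCounts and mm10, per the submitters' processing notes; stranded total RNA kit, per the labels' protocols). The table the authors deposited holds a signal, read counts scaled by a factor for each library: 100% of non-zero values were whole multiples of 1 read (tolerance 0.05), and recovered reads ran from 7157831 to 11293159. For the annotation and the strand setting of the counting, nothing is given in the sources used here.

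Testing used limma 3.58.1 (trend, robust) in R 4.3.3 on log2(value + 1) for genes with a mean of at least 10, two-sided, with region and the shared title name as a block. With 2 residual degrees of freedom per gene and a median prior of 39.9, the tests borrow most of their spread from other genes of like level. No label says whether libraries of the same name came from 1 mouse, so the p-values cover the variation among these libraries, which may be technical. Libraries were paired by the names in their titles. Deviations from region means correlated at 0.26, 0.24 and 0.36 for libraries of the same name and between -0.25 and 0.01 otherwise. Such deviations cancel out over the 3 libraries of a region, so part of this contrast is built in. The KH_161103 titles end in C and D, and their region is that of the source name. The limma step was tested on simulated data.

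Alternatives were no block, other pseudocounts, filters, scalings and prior, edgeR 4.0.16 and DESeq2 1.42.0 on recovered reads, and leaving out each pair; edgeR called 1521 genes toward VMHpvlm and 1510 toward VMHpvll. The members, lists, classes and tests were chosen with earlier results of these data known, and lists were described without a set test. All members are accounted for, and called genes of further lists were named, up to 6 per direction. Positions and exon overlaps came from GENCODE M21 and promoters from RefSeq GRCm38.p6.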

Additional observations from a re-analysis of the deposited data

How the results depend on the processing

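Over 13 alternatives all 11 called members kept their sign, and 6 kept their call in all but the prior without trend and robust step, where Zim1 alone was called. Without the replicate block, which ignores the pairing, 937 and 863 of all genes were called toward VMHpvlm and VMHpvll, and 1 member, a paternally expressed one, toward VMHpvll. DESeq2 gave 648 and 582, and likewise 1 toward VMHpvll. With the prior without trend and robust step the counts were 189 and 233, with 1 member toward VMHpvlm and 0 toward VMHpvll, and 0 paternally expressed ones in either direction. Setting equal totals moved the median over all genes to 0.0257 and called 1750 and 1220 genes, with 2 maternally expressed members (Zim1 and Ube3a) toward VMHpvlm; equal upper quartiles moved it to -0.00889 (1448 and 1508). With Blcap and Igf2r as maternally and Grb10 as paternally expressed, 2 maternally expressed members were called toward VMHpvlm. Leaving out 1 pair gave 935 to 1511 genes toward VMHpvlm and 838 to 1361 toward VMHpvll, 5 to 9 and 1 to 3 members, 4 to 7 and 1 to 3 paternally expressed members, and paternal medians of -0.00508 to 0.0829. Of 21 uncalled members, 11 changed sign in at least 1 alternative: with equal totals Ndn (0.00155), Snrpn (0.00693) and Zrsr1 (0.0217); with equal upper quartiles Igf2 (-0.000843) and Trappc9 (-0.00911); with edgeR Igf2 (-0.00792) and Trappc9 (-0.00403); and with DESeq2 Trappc9 (-0.00328). Leaving out 1 pair, the log2 difference ran from -0.0556 to 0.0763 for Meg3, -0.137 to 0.0104 for Mirg, -0.0905 to 0.0652 for Snrpn, -0.0921 to 0.129 for Igf2, -0.341 to 0.429 for Cdkn1c, -0.0591 to 0.373 for Asb4, -0.0414 to 0.0439 for Trappc9, -0.0793 to 0.0288 for Nap1l5, -0.0278 to 0.0404 for Zrsr1 and -0.117 to 0.252 for Commd1. Toward VMHpvlm and VMHpvll, the further imprinted genes gave 6 and 1 calls without the block, 4 and 0 by DESeq2 and 0 and 0 with the prior without trend and robust step; the imprint-keeping genes gave 0 and 1, 0 and 0, and 0 and 0; and the growth factor partners gave 0 and 5, 0 and 4, and 0 and 2. The cause of these changes was not tested. Depth limited Cdkn1c, Mkrn3 and H19 most, at 0 to 20 reads per library.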
